A study of Homo sapiens with 9 samples.

Results

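The epidermal growth factor receptor ligands amphiregulin (AREG), epiregulin (EREG), heparin-binding EGF-like growth factor (HBEGF) and transforming growth factor alpha (TGFA), the receptors EGFR, ERBB2 and ERBB3, and the receptor inhibitor ERRFI1 were examined in RNA from 9 libraries. The 8 genes were chosen by name, starting from AREG, which was selected on its fall between the parental libraries and those labelled TRAP-1 overexpression. All 8 of them had a row among the 22290 genes of the table. The libraries came from the cell line IMR-32, labelled as human neuroblastoma, and fall into the wild-type parental group (PAR), a group given as TRAP-1 knockdown (KD) and a group given as TRAP-1 overexpression (OE), of 3 libraries each. TRAP1 is the mitochondrial member of the HSP90 chaperone family. The KD and OE cells had been made before the study, and neither the vectors nor the number of clones behind each line is given in the sources used here. Values are the deposited regularized log2 values (rlog), which correct for library size and pull each value toward its gene's mean, so that a difference is understated and the more so at low levels. The study's methods state a sequencing depth, but the number of reads behind each of them cannot be read from such values.

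EGFR ligands are made as membrane-anchored precursors that ADAM proteases release, after which they bind EGFR on the same or a neighbouring cell. EGFR then pairs with itself or with ERBB2, ERBB3 or ERBB4 and signals through adaptors to the RAS-ERK and PI3K-AKT pathways, and ERRFI1, itself induced by this signaling, binds the receptor's kinase domain and blocks it. ERBB2 has no known ligand, and ERBB3, whose ligands are the neuregulins, has little kinase activity of its own and relays mainly to PI3K.

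TRAP1 (ENSG00000126602) was read first, as a check of the labels. Its rlog values were 10.67, 10.66 and 10.65 in the parental libraries, 10.79, 10.79 and 10.83 in those labelled KD and 10.67, 10.63 and 10.74 in those labelled OE. TRAP1 RNA was therefore not lower in the libraries labelled KD, where it rose by 0.14 (adjusted p = 1.8e-05 from limma, standard error 0.025, higher in 3 of 3 libraries). In the libraries labelled OE the difference was 0.018 (adjusted p = 0.643 from limma), which turned to -0.012 without OE replicate 3 and was called at 0.069 (adjusted p = 0.0290 from limma) once the median of each 20-Mb block of the chromosome was removed. Of the exonic bases of TRAP1, 28.5% are shared with other annotated genes. KD and OE below stand for the labels of the libraries and not for a measured level of TRAP1.

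The labelled cell type was compared with lists of marker genes. Of 16 markers of sympathetic neuroblastoma 10 had a row, and 4 of these were below a mean rlog of 5 over the 9 libraries, namely PHOX2A (1.34), MYCN (2.54), TH (2.73) and CHGA (3.97). PHOX2A is a transcription factor of sympathetic neurons, TH is the rate-limiting enzyme of catecholamine synthesis, CHGA is a protein of secretory granules, and MYCN is the oncogene amplified in the IMR-32 line. The levels of these 4 go against the label, while the other 6 lay above 5, from 5.77 for CHGB to 9.29 for ISL1, the most abundant gene of the list. The cells are therefore called by their libraries here. Taken back from the log2 scale, the list summed to 1527 to 1707 per library, with means of 1685 in PAR, 1546 in KD and 1617 in OE, and of its 10 genes 1 was called higher and 6 lower in KD, and 0 higher and 2 lower in OE, where 26.9% of all genes were called higher and 26.9% lower in KD, and 16.9% higher and 18.0% lower in OE. The mesenchymal list (9 of 10 with a row, 5 of them under a mean of 5) summed to 73710 to 89940 with VIM (15.89) as its most abundant gene (means 73831 in PAR, 86320 in KD and 89295 in OE). FN1 (13.83), PRRX1 (12.36) and PDGFRB (8.53) also lay above 5, and LUM (4.94), COL1A1 (4.18), DCN (3.07), COL1A2 (1.37) and COL3A1 (1.16) below it. These sums are mostly VIM and FN1. In KD VIM rose by 0.36 and FN1 fell by 0.96, while in OE they rose by 0.15 and 0.55. The epithelial and keratinocyte list (10 of 12 with a row, 5 of them under a mean of 5) summed to 6159 to 7315, led by KRT18 (12.04), with means of 6847 in PAR, 7214 in KD and 6185 in OE. Also above a mean of 5 were CLDN4 (9.89), DSP (9.76), KRT8 (8.96) and KRT14 (7.15). Below it were SFN (3.94), EPCAM (2.58), KRT17 (2.45), TP63 (1.60) and KRT5 (1.46). The Schwann and glial list (4 of 6 with a row, 0 of them under a mean of 5) summed to 19959 to 24129 (means 20188 in PAR, 23881 in KD and 22576 in OE), and its most abundant gene was ERBB3, one of the 8 genes examined. Taken back from the log2 scale, ERBB3 alone stood at 16186 in PAR, 20087 in KD and 17653 in OE. It thus makes up most of each sum, and the rise of the sum in KD is that of ERBB3. The endothelial list (5 of 5 with a row, 2 of them under a mean of 5) summed to 746 to 1141, led by PECAM1 at 9.50 (means 1030 in PAR, 1131 in KD and 782 in OE). KDR (7.45) and VWF (5.05) also lay above a mean of 5, and TEK (3.99) and CDH5 (0.62) below it. The leukocyte list (3 of 6 with a row, 2 of them under a mean of 5) summed to 70.8 to 86.6, led by LYZ (5.82), with means of 85.8 in PAR, 71.7 in KD and 76.7 in OE. Calls were 2 higher and 2 lower in KD and 4 higher and 0 lower in OE in the mesenchymal list, 2 higher and 3 lower in KD and 1 higher and 4 lower in OE in the epithelial, 0 higher and 1 lower in KD and 2 higher and 0 lower in OE in the Schwann and glial list without ERBB3, 2 higher and 1 lower in KD and 0 higher and 2 lower in OE in the endothelial and 0 higher and 2 lower in KD and 0 higher and 2 lower in OE in the leukocyte list. The part of these marker genes in the differences described next was not tested. HAND1, DBH, DDC, STMN2, ELAVL4, CDH1, KRT19, THY1, SOX10, CD3E and CD68 were not analysed here.

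AREG (ENSG00000109321, chr4:74445136-74455005, plus strand, GRCh38) was lower in the libraries labelled KD as well as in those labelled OE than in the parental ones. It codes for an EGFR ligand that is also a target of several growth factor pathways. Its rlog values were 8.83, 8.90 and 8.86 in the parental libraries, 7.26, 7.28 and 7.35 in KD and 7.73, 7.64 and 7.70 in OE. The 3 groups did not overlap, with parental highest and KD lowest. Between KD and PAR, a comparison that did not choose the gene, AREG fell by 1.57 (standard error 0.040, 95% confidence interval -1.65 to -1.49, adjusted p = 2.1e-25 from limma, lower in 3 of 3 libraries), a 2.96-fold decrease on the deposited scale. Counted from the lowest difference, AREG ranked 20 of 22290 genes in this comparison. Between OE and PAR, the contrast on which AREG was selected, the difference was -1.17 (standard error 0.040) and is given as a description. Both comparisons use the same parental libraries, so a parental value that was high for another reason would enter both. In bulk RNA, fewer cells making AREG and less AREG RNA per cell cannot be told apart.

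The stretches before the start of AREG, of EREG, the neighbouring ligand gene, which was not called, and of HBEGF, the other of the 4 ligands that fell in KD, are printed from RefSeq (GRCh38.p14), 250 bases each, 5′ to 3′ on the strand of the gene, with the letters of a cyclic AMP response element (CRE, TGACGTCA) and of a TATA box (TATAAA) in capitals. They lie at chr4:74444886-74445135 (plus strand), chr4:74364895-74365144 (plus strand) and chr5:140346604-140346853 (minus strand).
AREG: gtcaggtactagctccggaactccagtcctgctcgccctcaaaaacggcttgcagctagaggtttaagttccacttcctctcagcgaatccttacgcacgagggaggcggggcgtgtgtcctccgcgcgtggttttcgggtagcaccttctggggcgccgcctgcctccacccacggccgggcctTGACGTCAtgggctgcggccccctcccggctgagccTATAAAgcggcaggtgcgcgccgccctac
EREG: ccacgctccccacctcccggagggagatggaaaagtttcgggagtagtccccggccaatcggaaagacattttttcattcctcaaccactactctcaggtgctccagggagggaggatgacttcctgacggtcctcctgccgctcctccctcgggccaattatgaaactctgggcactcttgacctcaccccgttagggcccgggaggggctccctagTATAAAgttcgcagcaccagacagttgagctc
HBEGF: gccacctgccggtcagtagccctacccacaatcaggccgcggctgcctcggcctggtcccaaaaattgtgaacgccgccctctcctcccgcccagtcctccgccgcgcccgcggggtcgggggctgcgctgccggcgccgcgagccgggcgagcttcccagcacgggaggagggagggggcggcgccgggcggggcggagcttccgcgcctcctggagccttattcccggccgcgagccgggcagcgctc

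Entries were found for 7 of the 8 genes, all but ERBB3, with 9 windows because TGFA and EGFR have more than one start, and both strands were searched. The CRE letters occurred in 1 of the 9 windows, that of AREG, from 65 to 58 bases before its start, and in 1.65% of 35116 promoters in the table. The TATA letters occurred in windows of AREG, EREG and EGFR and in 10.7% of all promoters. The AP-1 letters TGANTCA occurred in windows of EGFR and ERBB2 (all promoters 6.57%), the TEAD letters GGAATG in those of EREG and EGFR (11.9%), the GC box GGGCGG in those of AREG, HBEGF, TGFA, EGFR and ERRFI1 (42.6%), and the E-box CACGTG in 0 of them (6.34%). The TATA, AP-1 and TEAD letters of EGFR all lay in its window at chr7:55109589-55109838, inside the gene. Its window at chr7:55018767-55019016, directly before the annotated start, held only the GC box of these. In the AREG window the CRE and the TATA letters do not overlap. The HBEGF window has neither. A match of letters is a description and not a measured binding site.

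HBEGF (ENSG00000113070, chr5:140332843-140346603, minus strand), a ligand of EGFR and ERBB4 that also binds heparin, had rlog values of 8.45, 8.60 and 8.53 in PAR, 7.84, 7.97 and 7.90 in KD and 7.97, 7.98 and 7.85 in OE. All parental libraries lay above all others, and KD and OE overlapped. HBEGF fell by 0.62 in KD (standard error 0.043, adjusted p = 5.6e-14 from limma), and its difference in OE was -0.59 (standard error 0.043). TGFA (ENSG00000163235, chr2:70447284-70554193, minus strand), a ligand of EGFR alone, went another way. Its rlog values were 14.23, 14.23 and 14.21 in PAR, 14.51, 14.52 and 14.50 in KD and 14.09, 14.09 and 14.05 in OE. The groups did not overlap, with KD highest and OE lowest. TGFA rose by 0.29 in KD (standard error 0.012, adjusted p = 1.1e-19 from limma), and its difference in OE was -0.15 (standard error 0.012). EREG (ENSG00000124882, chr4:74365145-74388749, plus strand), a ligand of EGFR and ERBB4, was between 2.70 and 2.78 in the 9 libraries, about 6.66 when the parental mean is taken back from the log2 scale. The 3 groups overlapped. At this level rlog values are strongly shrunken, and a difference of EREG in KD was not detectable (0.021, adjusted p = 0.597 from limma). With the block median removed it was -0.24, since a median taken over genes of higher level is then subtracted from a shrunken low value.

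**Figure D1:**
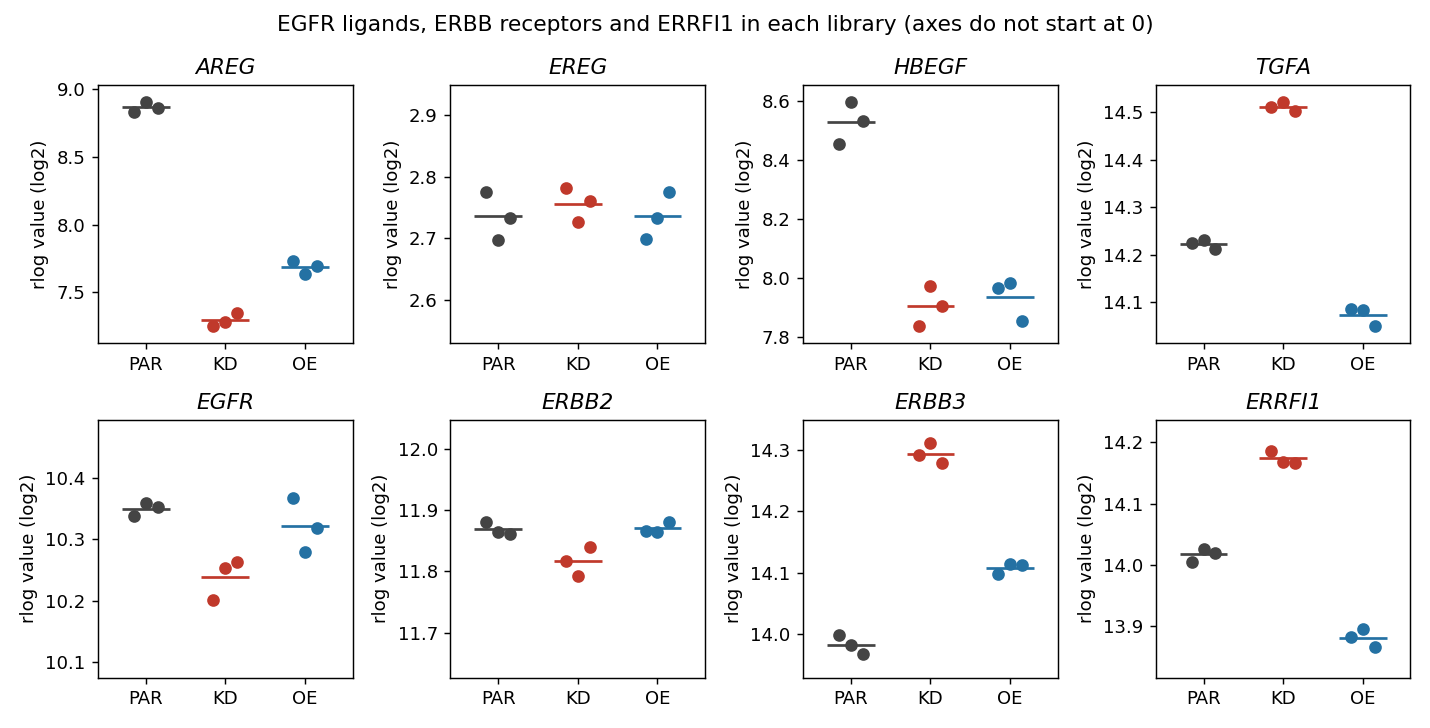
rlog values (log2, vertical axis, not starting at 0 and scaled for each gene) of the 8 genes in the parental (PAR), KD and OE libraries, with 1 point per library and a line at the group mean. AREG and HBEGF lie lower in both KD and OE, while TGFA and ERRFI1 lie above parental in KD and below it in OE.

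Levels of different genes were compared per exonic length, as the mean rlog value minus the log2 of the length in kb of all annotated exons. On that scale TGFA was the most abundant of 7 EGFR ligands in the parental libraries, at 11.93, followed by AREG at 8.15 and HBEGF at 6.95, then BTC at 4.99, EGF at 2.88, EREG at 0.22 and EPGN at 0.14. AREG stood at 6.58 in KD, close to HBEGF at 6.32, and at 6.97 in OE. Taken back from the log2 scale, AREG made up 6.54% ± 0.13 (SD, n = 3) of the summed level per length of the 7 ligands in PAR, 1.92% ± 0.075 (SD, n = 3) in KD and 3.35% ± 0.12 (SD, n = 3) in OE. The share of HBEGF was 2.85% ± 0.13 (SD, n = 3), 1.61% ± 0.069 (SD, n = 3) and 2.18% ± 0.076 (SD, n = 3) in the same order. TGFA held 89.7% ± 0.25 (SD, n = 3) in PAR, 95.5% ± 0.12 (SD, n = 3) in KD and 93.4% ± 0.096 (SD, n = 3) in OE, so that its share was higher in OE than in PAR although its own level was lower. These shares are descriptions, since AREG, which was selected on OE, enters each of them. None of the exonic bases of AREG, HBEGF, TGFA or EREG is shared with another annotated gene.

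**Figure D2:**
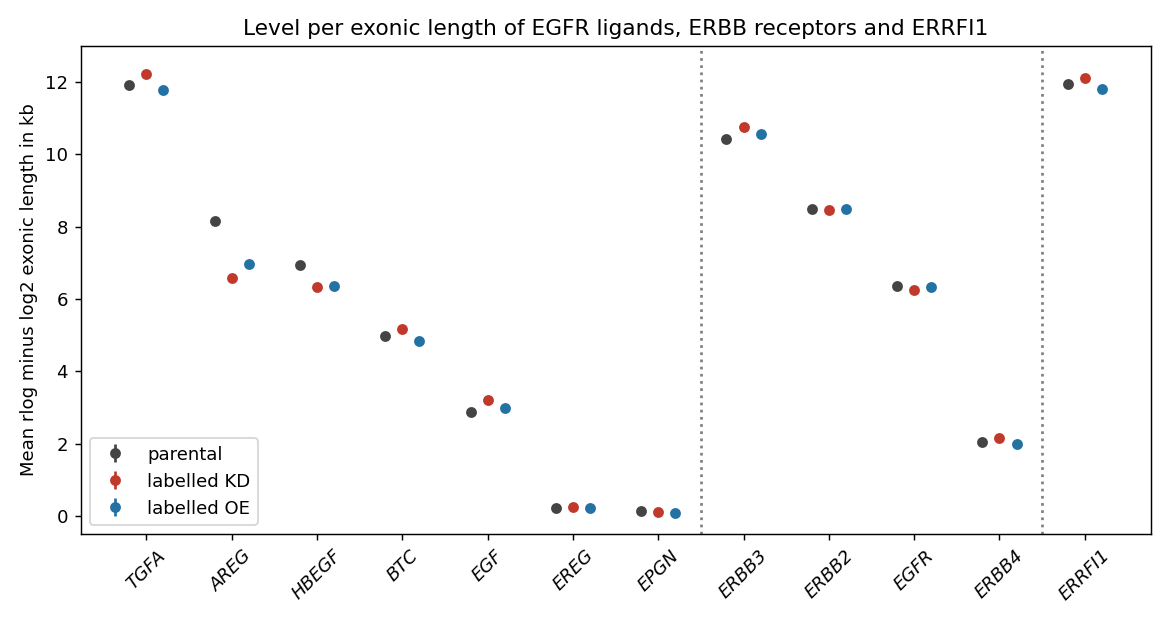
Mean rlog value minus the log2 of the exonic length in kb (vertical axis) of 7 EGFR ligands, 4 ERBB receptors and ERRFI1 in the 3 groups, with bars for the SD over 3 libraries, which are mostly smaller than the points. TGFA, ERBB3 and ERRFI1 lie highest, and AREG is the ligand with the widest spread between groups.

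Among the receptors, EGFR (ENSG00000146648, chr7:55019017-55211628, plus strand) had rlog values of 10.34, 10.36 and 10.35 in PAR, 10.20, 10.25 and 10.26 in KD and 10.37, 10.28 and 10.32 in OE. PAR and OE overlapped, and KD lay below both. EGFR fell by 0.11 in KD (standard error 0.026, adjusted p = 6.0e-04 from limma), and its difference in OE was -0.028 (standard error 0.026), or -0.051 without OE replicate 1 and -0.0066 without OE replicate 2. ERBB2 (ENSG00000141736, chr17:39687914-39730426, plus strand), the preferred partner of the other receptors, was at 11.88, 11.86 and 11.86 in PAR, 11.82, 11.79 and 11.84 in KD and 11.87, 11.86 and 11.88 in OE. Its difference of -0.052 in KD was the smallest among the 8 genes that passed the threshold (adjusted p = 0.0179 from limma). That call was lost without PAR replicate 1 (adjusted p = 0.0695 from limma), without KD replicate 2 (adjusted p = 0.114 from limma), and also with the median of each 20-Mb block removed (-0.028, adjusted p = 0.198 from limma). ERBB3 (ENSG00000065361, chr12:56076799-56103505, plus strand) had rlog values of 14.00, 13.98 and 13.97 in PAR, 14.29, 14.31 and 14.28 in KD and 14.10, 14.11 and 14.11 in OE. The groups did not overlap, with KD highest and PAR lowest. ERBB3 rose by 0.31 in KD (standard error 0.012, adjusted p = 2.9e-20 from limma), and its difference in OE was 0.13 (standard error 0.012).

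Per exonic length, ERBB3 was the most abundant of the 4 receptors in PAR at 10.43, followed by ERBB2 at 8.50, EGFR at 6.35 and ERBB4 at 2.06, and the order was the same in KD and OE. ERBB3 held 75.5% ± 0.11 (SD, n = 3) of their summed level per length in PAR, 80.0% ± 0.41 (SD, n = 3) in KD and 77.1% ± 0.21 (SD, n = 3) in OE, and EGFR held 4.47% ± 0.069 (SD, n = 3), 3.53% ± 0.081 (SD, n = 3) and 4.11% ± 0.14 (SD, n = 3) in the same order. Of the exonic bases of ERBB2, 6.93% are shared with MIEN1 and PGAP3, and 1.17% of those of EGFR with EGFR-AS1. The library kit does not mark the strand, so reads from such stretches cannot be told apart.

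ERRFI1 (ENSG00000116285, chr1:8004404-8026309, minus strand), the feedback inhibitor, had rlog values of 14.01, 14.03 and 14.02 in PAR, 14.19, 14.17 and 14.17 in KD and 13.88, 13.90 and 13.87 in OE. The groups were in the order KD, PAR, OE with no overlap, the same order as those of TGFA. ERRFI1 rose by 0.16 in KD (standard error 0.012, adjusted p = 1.1e-12 from limma), and its difference in OE was -0.14 (standard error 0.012). Per exonic length it stood at 11.95 in PAR, close to TGFA, and 3.71% of its exonic bases lie in other genes too.

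In all, 7 of the 8 genes were called between KD and PAR at an adjusted p under 0.05, 3 higher (TGFA, ERBB3, ERRFI1) and 4 lower (AREG, HBEGF, EGFR, ERBB2). Of all 22290 genes 53.7% were called in this comparison, 26.9% higher and 26.9% lower, and among the 14000 whose mean rlog was 5 or more, to which 7 of the 8 belong, the share was 71.7%. Most genes at such levels were called, so the count of 7 is no result particular to these genes. The KD libraries lay beyond all PAR libraries in 7 of the 8 genes, against 59.2% of all genes. The OE libraries lay beyond all PAR libraries in 5 of the 8 genes (AREG, HBEGF, TGFA, ERBB3, ERRFI1), against 43.2% of all genes, from which nothing is read because that contrast chose AREG.

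**Figure D3:**
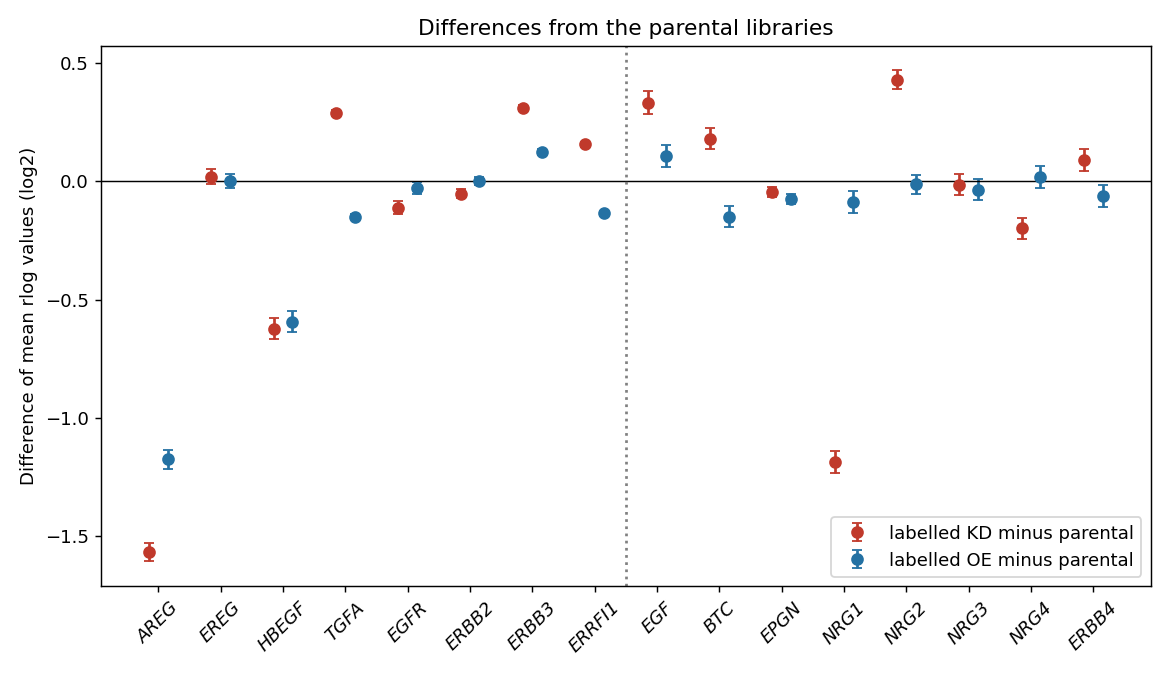
Difference of mean rlog values from the parental libraries (log2, vertical axis) in KD and OE for the 8 genes, left of the dotted line, and for the other EGF-family ligands and ERBB4, right of it, with bars of 1 standard error. AREG has the lowest values of the 8 in both, and NRG1 is low in KD.

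The other ligands of the family and ERBB4 were taken as a list of 8 genes, all with a row. In KD 5 of them were called (62.5%, against 53.7% of all genes), 3 higher and 2 lower, with a median difference of 0.037. NRG1 (ENSG00000157168), a neuregulin that binds ERBB3 and ERBB4, had rlog values of 7.17, 7.20 and 7.14 in PAR, 5.97, 5.99 and 5.99 in KD and 7.18, 7.08 and 6.99 in OE. It fell by 1.19 in KD (adjusted p = 2.9e-20 from limma, standard error 0.047), and every KD library lay below all others. NRG4, also a neuregulin, fell by 0.20 in KD (adjusted p = 3.6e-04 from limma), while FBXO22 covers 38.2% of its exonic bases. A further neuregulin, NRG2, rose by 0.43 (adjusted p = 4.4e-11 from limma) and EGF, the ligand that gave EGFR its name, by 0.33 (adjusted p = 3.1e-07 from limma). BTC, a ligand of EGFR and ERBB4, rose by 0.18 (adjusted p = 7.7e-04 from limma), but its difference was -0.080 once the 20-Mb block medians were removed. NRG3, a neuregulin of the nervous system, EPGN, a further ligand of EGFR, and ERBB4, the receptor of neuregulins, had differences of -0.015, -0.045 and 0.089 and were not called, except that ERBB4 passed the threshold without the variance trend (adjusted p = 0.0316 from limma). EPGN passed the threshold without PAR replicate 3 (adjusted p = 0.0401 from limma) and without KD replicate 1 (adjusted p = 0.0415 from limma), at a mean rlog of only 1.82, and with the block medians removed (-0.31, adjusted p = 3.4e-14 from limma).

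In OE 2 of these 8 genes were called, both lower, against 34.8% of all genes called, 16.9% higher and 18.0% lower, and 50.3% of those whose mean rlog was 5 or more. BTC fell by 0.15 (adjusted p = 0.00781 from limma), a call that was lost once the block medians were removed (-0.071, adjusted p = 0.216 from limma). EPGN fell by 0.073 (adjusted p = 0.00635 from limma) at its low level, and its difference was 0.0044 with the block medians removed. The difference of NRG1 in OE was -0.087 (adjusted p = 0.168 from limma), and it was called without OE replicate 1 (-0.13, adjusted p = 0.0373 from limma) and with the block medians removed (-0.14, adjusted p = 0.0196 from limma). EGF, NRG2, NRG3, NRG4 and ERBB4 had differences of 0.11, -0.012, -0.035, 0.018 and -0.063 and were not called, except that EGF passed the threshold without the variance trend (adjusted p = 0.0364 from limma). The sign turned for NRG2 without PAR replicate 1 (0.0096) and for NRG4 without OE replicate 2 (-0.027). Whether any of these differences in OE was unlike that in KD was not tested.

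AREG lies in a cluster with EPGN, EREG and BTC on chromosome 4, next to a cluster of CXC chemokines. Within 1 Mb of it, counted between the lower coordinates of the genes, there were rows for 13 other genes. In KD 6 of 13 were called, 2 higher and 4 lower, against 53.7% of all genes called, 26.9% higher and 26.9% lower. In OE, without EREG, 8 of 12 were called, all lower, against 34.8% of all genes, 16.9% higher and 18.0% lower. Both counts changed with 20-Mb block medians removed. In KD, BTC and PARM1 were then not called, and MTHFD2L and the neighbours with a mean rlog below 5 were called lower. In OE, BTC and EPGN were then not called, and the lncRNAs UMLILO, ENSG00000250532 and ENSG00000251185 were called higher. The 4 chemokine genes among the neighbours, whose products attract neutrophils, were called lower in both comparisons. CXCL8, 705 kb before AREG, was 12.58 ± 0.027 (SD, n = 3) in PAR, 12.14 ± 0.024 (SD, n = 3) in KD and 12.09 ± 0.043 (SD, n = 3) in OE. It fell by 0.43 in KD (adjusted p = 1.5e-18 from limma) and by 0.48 in OE (adjusted p = 4.7e-19 from limma). CXCL1, 576 kb before AREG, was 11.54 ± 0.025 (SD, n = 3) in PAR, 10.64 ± 0.033 (SD, n = 3) in KD and 10.99 ± 0.019 (SD, n = 3) in OE. It fell by 0.90 in KD (adjusted p = 1.5e-25 from limma) and by 0.55 in OE (adjusted p = 4.5e-19 from limma). CXCL3 fell by 0.40 and 0.37 and CXCL2 by 0.35 and 0.30 in KD and OE. CXCL1, CXCL2 and CXCL3 are close copies of each other, so the split of reads between them is uncertain. In each of these 4 genes all KD and all OE libraries lay below all parental ones, where 59.2% of all genes in KD and 43.2% in OE had no overlap with PAR in either direction.

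On the other side of AREG there were rows for BTC, PARM1 and the lncRNA ENSG00000251185. PARM1, 488 kb after AREG, rose by 0.29 in KD (adjusted p = 2.2e-06 from limma) and fell by 0.36 in OE (adjusted p = 1.2e-07 from limma), as BTC did at 300 kb, where the difference in KD was -0.080 and not called with the block medians removed. ENSG00000251185 had a difference of -2.6e-04 in KD (adjusted p = 0.992 from limma). MTHFD2L, a mitochondrial enzyme of folate metabolism, 331 kb before AREG, had a difference of -0.060 in KD (adjusted p = 0.114 from limma), which was called without KD replicate 1 (-0.096, adjusted p = 0.0166 from limma), and fell by 0.20 in OE (adjusted p = 4.1e-06 from limma). EREG and EPGN, the ligand genes nearest to AREG, and the lncRNA UMLILO, the pseudogene ENSG00000251017 and the lncRNAs ENSG00000250532 and ENSG00000251185 all had a mean rlog below 5, and of these 6 genes EPGN was called, in OE. With the median of their 20-Mb block removed all 6 were called lower in KD, at -0.31 for EPGN, -0.30 for UMLILO, -0.28 for ENSG00000250532, -0.26 for ENSG00000251185, -0.24 for EREG and -0.22 for ENSG00000251017, while in OE the call of EPGN was lost (adjusted p = 0.898 from limma) and 3 were called higher, UMLILO (0.061, adjusted p = 0.0488 from limma), ENSG00000250532 (0.068, adjusted p = 0.00103 from limma) and ENSG00000251185 (0.062, adjusted p = 0.00340 from limma). That median is taken over genes of higher level, so subtracting it moves shrunken low values by construction. Over a wider stretch, of 5 Mb to each side of AREG, 31 of 40 other genes whose mean rlog was 5 or more had a higher mean in KD than in PAR (77.5%, median difference 0.33), and 10 of 40 had a higher mean in OE (25.0%, median -0.087). The decrease of AREG in KD ran against the direction of most of the stretch, and with the median of its 20-Mb block removed it was -1.83. With that median removed, the differences in KD were -0.69 for CXCL8, -0.66 for CXCL3 and -0.61 for CXCL2, while that of PARM1 was 0.030 and no longer called (adjusted p = 0.596 from limma), and that of MTHFD2L in KD was -0.32 and called. In OE that of MTHFD2L was -0.13. What moves the stretch as a whole was not tested.

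**Figure D4:**
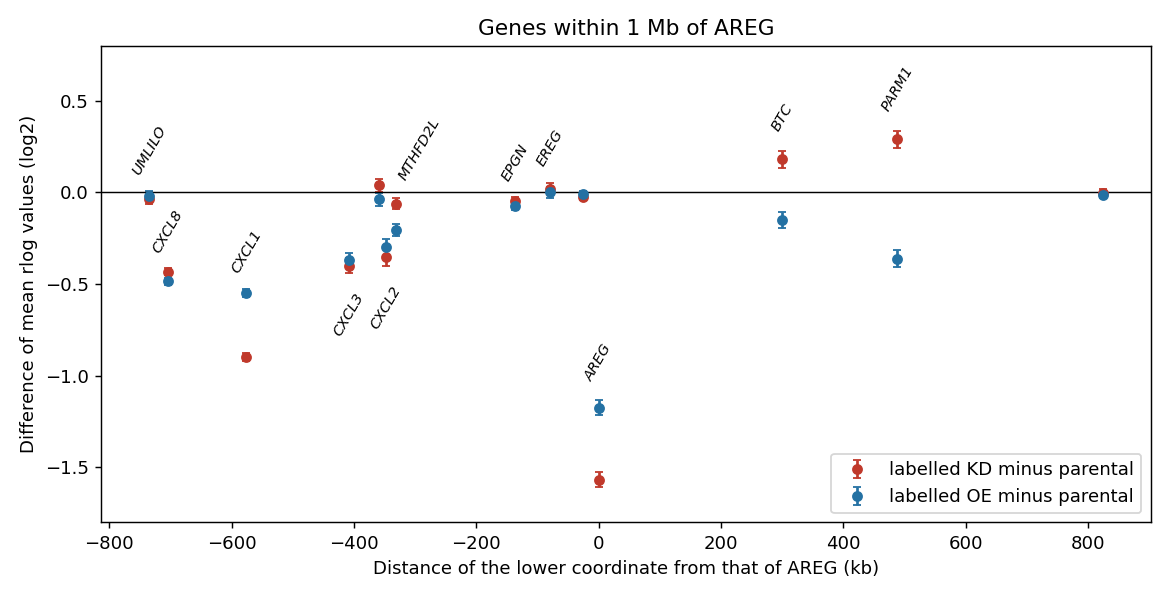
Difference of mean rlog values from the parental libraries (log2, vertical axis) of AREG and 13 genes within 1 Mb of it, against the distance in kb of each gene's lower coordinate from that of AREG, for KD and OE with bars of 1 standard error. The 4 CXC chemokine genes and AREG are lower in both, and BTC and PARM1 are higher in KD and lower in OE as deposited, though BTC turned sign in KD with 20-Mb block medians removed.

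The genes whose profile was most like that of AREG were sought among 13969 other genes with a symbol and a mean rlog of 5 or more, by the Euclidean distance between mean-centred values over the 9 libraries, which fall into 3 groups, so that the Pearson r beside it mostly reflects the group means. The nearest was WNT9A, a WNT ligand, with a distance of 0.223 (r = 0.995). Its mean rlog was 7.94 ± 0.026 (SD, n = 3) in PAR, 6.45 ± 0.045 (SD, n = 3) in KD and 6.89 ± 0.059 (SD, n = 3) in OE, differences of -1.50 and -1.06. The pseudogene GGT4P followed at 0.402 (r = 0.980), and since it resembles other GGT genes its reads are uncertain. KDR, a receptor of vascular endothelial growth factor, was next at 0.503 (r = 0.980) with differences of -1.32 in KD and -0.84 in OE. COL6A3, a collagen chain, had a distance of 0.572 (r = 0.982) and differences of -1.24 and -0.73, and FERMT3, an integrin activator, a distance of 0.576 (r = 0.983) and differences of -1.12 and -1.02. As these genes were picked for their likeness to AREG, their differences are given without a test.

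Genes that act around the receptors were taken in 5 lists, of which the other ligands above are 1, and which together held 91 genes, 84 of them with a row. In KD 68 of these 84 were called, 43 higher and 25 lower, with a median difference of 0.057. In OE 45 were called, 21 higher and 24 lower, with a median of -0.019. These are 81.0% and 53.6% of the 84, of which 80 had a mean rlog of 5 or more, and lie near the 71.7% and 50.3% called among all genes at such levels. The median over all 22290 genes was -5.1e-04 in KD and 3.9e-04 in OE. The genes named below are from the 3 called genes of each list with the largest difference in either direction, per comparison. RHBDL2, TIMP3, PIK3R2, CBLC, SOCS5, JUNB and ETV4 were not analysed here.

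Of the genes that process and shed ligands, 4 of 9 were called higher and 3 lower in KD (median 0.065), and 2 higher and 1 lower in OE (median -0.0098). In total 77.8% of the list was called in KD and 33.3% in OE, against 71.7% and 50.3% of all genes at a mean rlog of 5 or more. ADAM19, a protease that can shed neuregulins, rose by 0.49 in KD (adjusted p = 2.1e-22 from limma). RHBDF1, which carries the sheddase ADAM17 to the surface, rose by 0.14 (adjusted p = 3.0e-08 from limma), and ADAM10, the main sheddase of EGF and BTC, fell by 0.14 (adjusted p = 9.8e-09 from limma). In OE ADAM12, a protease that can release HBEGF, rose by 0.30 (adjusted p = 1.2e-09 from limma) and FRMD8, which stabilizes the ADAM17 complex, fell by 0.20 (adjusted p = 1.6e-11 from limma). ADAM9, a related protease, rose by 0.062 in OE (adjusted p = 0.00252 from limma), a call that was lost once the 20-Mb block medians were removed (adjusted p = 0.685 from limma).

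Of the adaptors and relay proteins, 18 of 34 were called higher and 9 lower in KD (median 0.047), and 10 higher and 7 lower in OE (median 0.0077). The called shares of 79.4% in KD and 50% in OE are near the 71.7% and 50.3% for all genes whose mean rlog was 5 or more. PIK3R3, a regulatory subunit of PI3K, rose by 0.33 in KD (adjusted p = 4.3e-09 from limma), with 17.5% of its exonic bases in common with other genes. The docking proteins GAB2 and GAB1 rose in OE by 0.20 (adjusted p = 4.1e-07 from limma) and 0.17 (adjusted p = 1.7e-04 from limma).

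Inhibitors of the receptors and of the pathway were called higher in 12 and lower in 6 of 20 genes in KD (median 0.090), and higher in 6 and lower in 5 in OE (median -0.015). That makes 90.0% called in KD and 55.0% in OE, where all genes of a mean rlog of 5 or more gave 71.7% and 50.3%. SPRY1, a Sprouty inhibitor of RAS-ERK signaling, had rlog values of 8.39, 8.44 and 8.48 in PAR, 9.53, 9.56 and 9.50 in KD and 8.95, 9.04 and 9.02 in OE. It rose by 1.09 in KD (adjusted p = 3.6e-23 from limma) and by 0.56 in OE (adjusted p = 6.4e-15 from limma). SPRY4 rose by 0.56 in KD (adjusted p = 2.7e-26 from limma) and differed by 0.021 in OE (adjusted p = 0.242 from limma). The Sprouty-related SPRED3 rose by 0.54 in KD (adjusted p = 4.7e-17 from limma) and by 0.21 in OE (adjusted p = 5.3e-07 from limma). LRIG3, a transmembrane protein of the LRIG family, fell by 0.20 in OE (adjusted p = 3.0e-09 from limma).

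Genes that ERK signaling induces were called higher in 7 and lower in 6 of 15 genes in KD (median -0.018), and higher in 3 and lower in 9 in OE (median -0.12). The shares called were 86.7% in KD and 80.0% in OE, beside 71.7% and 50.3% of all genes whose mean rlog was 5 or more. SPRY2 and SPRY4 count in this list as well as among the inhibitors. The immediate early gene FOS was 9.31 ± 0.057 (SD, n = 3) in PAR, 10.43 ± 0.017 (SD, n = 3) in KD and 9.77 ± 0.056 (SD, n = 3) in OE. It rose by 1.13 in KD (adjusted p = 1.7e-24 from limma) and by 0.46 in OE (adjusted p = 1.1e-13 from limma). EGR1, an immediate early gene too, rose by 0.85 in KD (adjusted p = 1.6e-28 from limma) and differed by -0.0098 in OE (adjusted p = 0.707 from limma). FOSL1, an AP-1 subunit that accumulates under sustained ERK signaling, was 13.77 ± 0.011 (SD, n = 3) in PAR, 13.05 ± 0.013 (SD, n = 3) in KD and 13.25 ± 0.016 (SD, n = 3) in OE. It fell by 0.72 in KD (adjusted p = 1.6e-28 from limma) and by 0.52 in OE (adjusted p = 9.4e-24 from limma). CCND1, cyclin D1, fell by 0.36 in OE (adjusted p = 1.0e-20 from limma) and by 0.14 in KD (adjusted p = 3.9e-11 from limma), and LTO1 covers 10.4% of its exonic bases.

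**Figure D5:**
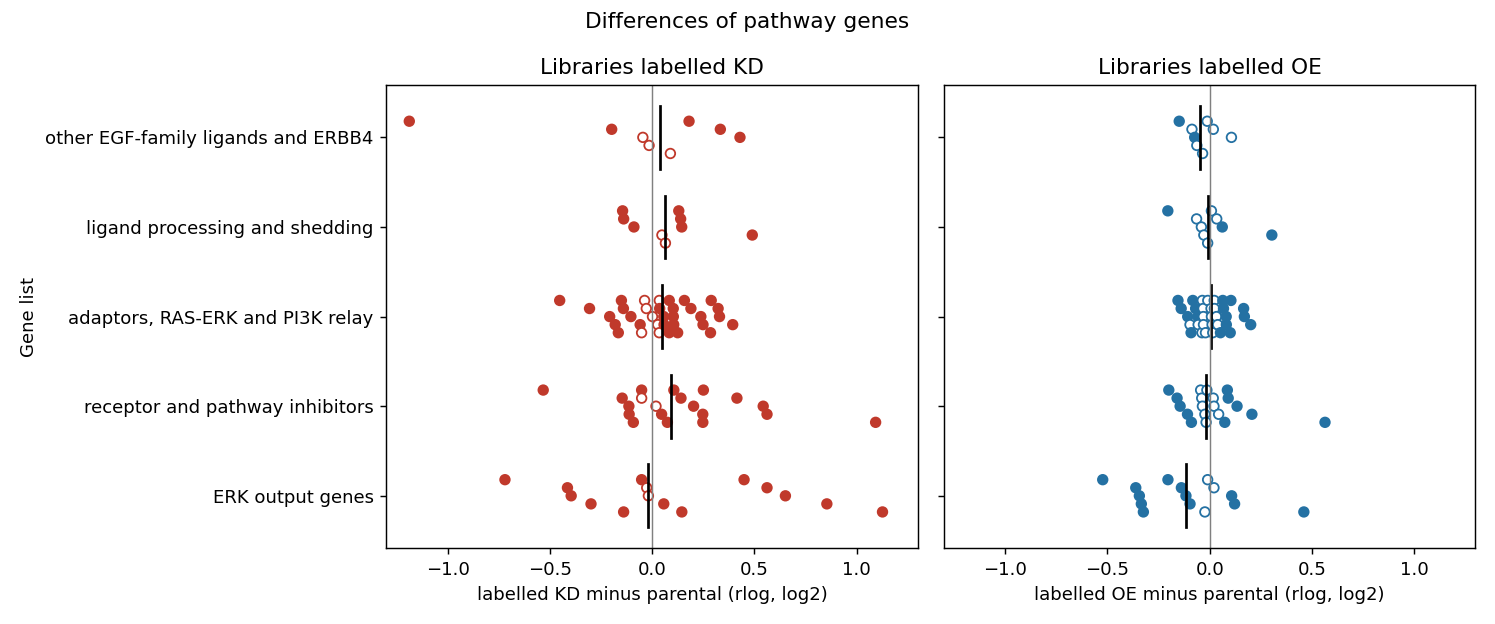
Difference of mean rlog values from the parental libraries (log2, horizontal axis) of each gene in the 5 lists (vertical axis), for KD on the left and OE on the right. Filled points were called at an adjusted p under 0.05, open points were not, and black lines mark the median of each list.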

How the data were processed

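RNA from 9 libraries of IMR-32 cells was sequenced after a TruSeq v2 preparation. The sources name cutadapt for trimming, HISAT2 for alignment to GRCh38, featureCounts of Subread for gene counts and DESeq2, without versions, and genes with few reads were removed. The deposited values are log2 values (rlog). The table has 3 columns that match no sample and hold no values. Of 22290 gene IDs, 22195 matched a symbol. Groups were compared with limma 3.58.1 in R 4.3.3 (all 9 libraries in 1 moderated linear model with a variance trend, tested on simulated data first), with Benjamini-Hochberg adjustment over all genes and a call at an adjusted p under 0.05. Positions and exonic lengths come from GENCODE 44. Nothing says that the libraries of a group came from separate cultures, so p-values measure only the spread between these libraries, which may be technical. The genes and lists were chosen with earlier results of these data known. Genes are named by rule: the 8 genes, TRAP1, the other ligands, the 3 called genes of largest difference per list and comparison, the 5 genes most like AREG, those within 1 Mb of it and the most abundant marker per list. Some genes that the rule or the lists name are not reported here. Markers other than the most abundant, and the second comparison's values for genes the rule names in 1 comparison, were chosen after their values were seen. Alternatives were a mean rlog of at least 5, no variance trend, 2 groups only, a replicate block, median centring, quantile normalization, removal of 20-Mb block medians, an adjusted p under 0.01 and leaving out each library.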

Additional observations from a re-analysis of the deposited data

How the results depend on the processing

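The results were recomputed under 1494 combinations of result and alternative, of which 1450 kept the direction and the side of the threshold or moved by less than the replicate spread, 7 lost a call and 13 gained 1 with the direction kept, 5 untested values moved further and 19 turned sign. The 1450 include counts of genes, which have no direction and were only held to a fixed fold range around the main count. Of those that turned sign, 2 also lost a call, 5 gained 1 and 12 were called neither before nor after. The number of genes called was 10112 to 13416 in KD and 5953 to 8478 in OE over the alternatives. Of the 8 genes 6 to 7 were called in KD, where ERBB2 lost its call without PAR replicate 1, without KD replicate 2, at an adjusted p under 0.01 and with block medians removed, when EREG was called instead, and of the pathway genes 62 to 69 in KD and 41 to 47 in OE. AREG in KD was between -1.83 and -1.55. The OE libraries lay beyond the PAR libraries in 5 to 6 of the 8 genes. TRAP1 in OE was called with 20-Mb block medians removed (0.069), and ranged from -0.012 to 0.042 when 1 library was left out.

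Differences that turned sign with block medians removed were, in KD, EREG (-0.24), BTC (-0.080) and ENSG00000251017 (-0.22), and, in OE, EPGN (0.0044), UMLILO (0.061), ENSG00000251017 (0.040), ENSG00000250532 (0.068) and ENSG00000251185 (0.062). Of these BTC in KD and EPGN in OE lost their calls, and EREG and ENSG00000251017 in KD and UMLILO, ENSG00000250532 and ENSG00000251185 in OE gained 1. All but BTC have a mean rlog below 5, where the block's median is subtracted from a strongly shrunken value. For BTC in KD the median subtracted, 0.26, was larger than its difference of 0.18, so the sign turned by the subtraction. What sets that median was not tested. ENSG00000251185 in KD was 0.0054 with median centring and -0.012 to 0.0067 with 1 library left out. With 1 library left out, differences in OE ranged from -0.043 to 0.0096 for NRG2, -0.027 to 0.047 for NRG4, -0.031 to 0.0095 for UMLILO and -0.025 to 0.0052 for ENSG00000250532, none of them called.

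The deviations of libraries with the same number correlated between -0.071 and 0.14, and those with different numbers between -0.14 and 0.075. Whether libraries with the same number were prepared together cannot be read from such small correlations. With the number as a replicate block 12015 genes were called in KD and 7854 in OE, and AREG in KD was -1.57. The reads behind each library are unknown from rlog values, and differences of genes at low levels are shrunken most.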
